A study of Mus musculus with 6 samples.

Results

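The 9 genes described here, of hepatic glucose output, glycogen turnover and the response to fasting, were measured in the livers of mice that make a misfolding human protein. They are Pck1, G6pc and Fbp1 (gluconeogenesis), Gys2 and Pygl (glycogen), and Pdk4, Igfbp1, Ppargc1a and Irs2 (the fasting and insulin response). They were read from every probe set, a group of short probes against 1 transcript, for which the array's annotation names exactly 1 gene and that gene is on this list. All 9 genes were found among the 12393 that the array names, through 14 of its 22626 probe sets other than controls, with 5 for Ppargc1a, 2 for Pck1 and 1 for each of the other 7 genes. The comparison is of 3 PiZ mice, which carry a human transgene for the Z variant of alpha-1 antitrypsin, a secreted protease inhibitor that misfolds and collects in the endoplasmic reticulum of hepatocytes, with 3 wild-type mice. All were 6 weeks old and C57BL/6, liver RNA was used, and each mouse was read on its own one-colour Affymetrix array. The sources used here do not give the promoter or copy number of the transgene, the sex of the mice, their feeding state or the hour of collection. Values are log2 intensities, so a difference of 1 is a doubling of signal, and n = 3 per group throughout.

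Between meals the liver keeps blood glucose up by breaking down glycogen and, as fasting goes on, by making glucose from lactate, amino acids and glycerol. Glucagon and glucocorticoids raise, and insulin lowers, transcription of the enzymes that do this, in part through CREB and its coactivators, the forkhead factor FOXO1 and the coactivator PGC-1alpha, which Ppargc1a encodes. Fasting also switches pyruvate away from oxidation and releases Igfbp1, a secreted protein that binds insulin-like growth factors and is among the liver transcripts most sharply repressed by insulin.

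The arrays differ in a way that touches several of these genes. PiZ replicate 1 correlated with the wild-type arrays at 0.981 to 0.983 over all probe sets and with the other PiZ arrays at 0.979 and 0.982, while the correlation between PiZ replicates 2 and 3 was 0.993. Control probe sets at the 3′ and 5′ ends of Gapdh and beta-actin differ more when RNA is shortened. This 3′ to 5′ gap averaged 2.50 (log2) in PiZ replicate 1, 4.64 in replicate 2 and 4.33 in replicate 3, against 2.20 to 2.70 in wild-type. For the 9 members, PiZ replicates 2 and 3 are therefore given apart from replicate 1 wherever they part. For many of the related genes only the difference between group means is given, and the PiZ arrays may part there too. The share of RNA quality in such a split was not tested. Of 9 hepatocyte markers measured, 1 (fibrinogen Fgb) fell, and 3 were lower at an unadjusted limma p below 0.05. All 9 read lower in PiZ, with differences of -0.83 to -0.0091 (median -0.19). Their mean level was 13.98 to 14.20 in PiZ and 14.28 to 14.29 in wild-type arrays. Of 8 macrophage markers 3 rose (mean level 9.03 to 9.44 in PiZ, 8.95 to 9.08 in wild-type) and of 7 neutrophil markers 2 rose, S100a8 and S100a9 (5.32 to 5.51 in PiZ, 4.40 to 4.69 in wild-type). Of 6 pancreas markers 2 rose and 1 fell, and of 9 stellate and fibroblast markers 1 fell. The 38 measured markers of cholangiocytes, endothelium, lymphocytes, fat, skeletal muscle and kidney gave 0 calls with limma (6 had an unadjusted p below 0.05). The part of other cell types in the differences below was not tested. In whole liver, fewer hepatocytes and less RNA per hepatocyte cannot be told apart.

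Of the 14 probe sets 6, each of a different gene, passed the test in PiZ against wild-type liver. Igfbp1, Pdk4, Irs2 and 1 probe set of Ppargc1a rose, and Gys2 and Pygl, the liver's glycogen synthase and glycogen phosphorylase, fell. The gluconeogenic enzymes Pck1, G6pc and Fbp1 did not pass. A probe set passed at a limma adjusted p below 0.05, with Benjamini-Hochberg adjustment over all 22626 probe sets. Of all probe sets 19.1% passed, 8.93% higher and 10.2% lower in PiZ, so calls are common in this comparison. The groups did not overlap for 7 of the 14 member probe sets, while 42% of all probe sets did not overlap. The median difference was -0.18 over the 14 probe sets and 0.08 over all.

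**Figure D1:**
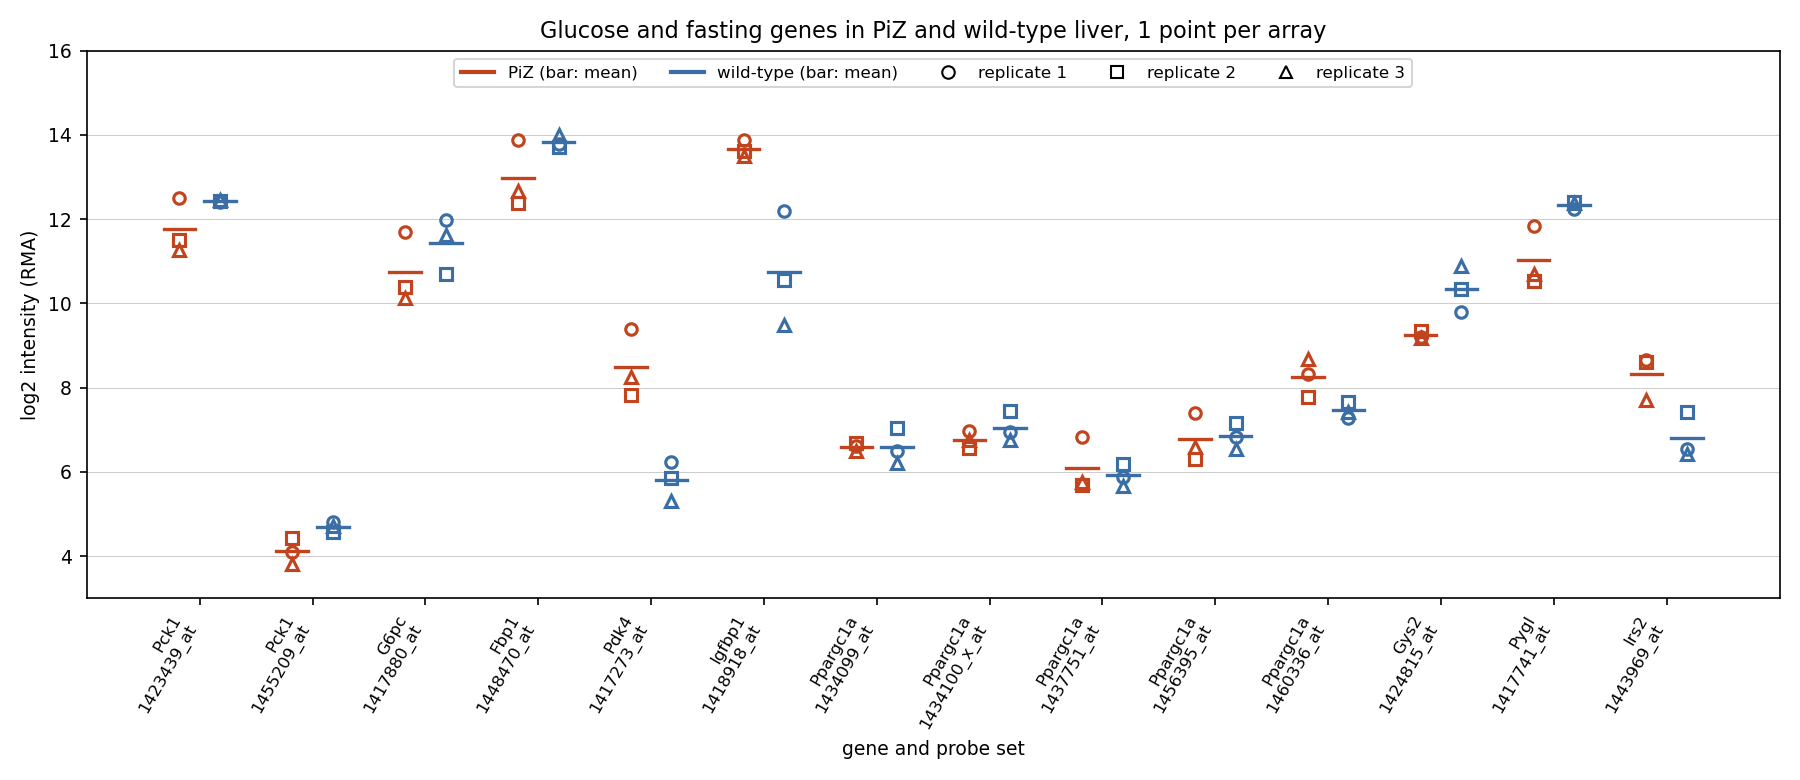
Log2 intensity of each member probe set (one column each, gene name and probe set below) in the 3 PiZ arrays (red, left) and the 3 wild-type arrays (blue, right). Symbols mark the replicate number within a group and bars the group mean. Igfbp1 lies between 13.51 and 13.88 in PiZ and between 9.49 and 12.20 in wild-type, and PiZ replicate 1 stands above the other PiZ arrays for Pck1 (1423439_at), G6pc, Fbp1, Pdk4 and Pygl.

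Igfbp1 (probe set 1418918_at) had the greatest difference among the members. It read 13.88, 13.61 and 13.51 in PiZ livers, against 12.20, 10.55 and 9.49 in wild-type livers. Every PiZ array lay above every wild-type array, and the wild-type mice spread far more than the PiZ mice. The mean was 13.66 ± 0.19 in PiZ and 10.75 ± 1.36 in wild-type (SD), a rise of 2.92 (SE 0.59, 95% interval 1.54 to 4.30) or 7.57-fold, with a limma adjusted p of 0.0166. PiZ replicate 1 was 3.13 above the wild-type mean, and the other PiZ arrays were on average 2.81 above it. The call was lost without PiZ replicate 2 (adjusted p = 0.0528), PiZ replicate 3 (0.0599) or wild-type replicate 2 (0.0655), while the rise stayed between 2.29 and 3.65 whichever array was left out.

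Pdk4 (1417273_at), a mitochondrial kinase that switches off pyruvate dehydrogenase and so spares pyruvate for glucose synthesis, rose as well. It read 9.40, 7.84 and 8.25 in PiZ livers, against 6.24, 5.85 and 5.32 in wild-type livers. The groups did not overlap, and PiZ replicate 1 was the highest array. Pdk4 rose by 2.69 (SE 0.41, 95% interval 1.74 to 3.64), or 6.47-fold, with a limma adjusted p of 0.00666. PiZ replicate 1 was 3.60 above the wild-type mean, and the other PiZ arrays averaged 2.24 above it. Among the members only Pdk4 kept its call in all 17 other settings tried, with an adjusted p of 0.000250 to 0.0363 and a rise of 2.24 to 3.65.

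Irs2 (1443969_at), a docking protein that carries the insulin receptor's signal and is itself repressed by insulin in liver, rose. It read 8.66, 8.60 and 7.70 in PiZ livers, against 6.54, 7.42 and 6.42 in wild-type livers. PiZ replicate 3 came close to wild-type replicate 2, but the groups did not overlap. Irs2 rose by 1.52 (SE 0.34, 95% interval 0.73 to 2.31), or 2.87-fold, with a limma adjusted p of 0.0225. The call was lost without PiZ replicate 2 (adjusted p = 0.0742), wild-type replicate 1 (0.0920) or wild-type replicate 3 (0.0932), and when the 3′ to 5′ gap was fitted as a covariate (0.0650).

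The 5 probe sets of Ppargc1a did not move together. The probe set with the highest mean, 1460336_at, read 8.32, 7.79 and 8.68 in PiZ livers, against 7.28, 7.67 and 7.43 in wild-type livers. PiZ replicate 2 was only just above the highest wild-type array. This probe set rose by 0.80 (SE 0.23, limma adjusted p = 0.0474), or 1.74-fold, and the call was lost without PiZ replicate 3 (adjusted p = 0.130), without wild-type replicate 1, 2 or 3 (0.161, 0.0898 and 0.144) and with the 3′ to 5′ covariate (0.121). The other 4 did not pass. Their differences were 0.01 (SE 0.21) for 1434099_at, -0.29 (SE 0.20) for 1434100_x_at, 0.18 (SE 0.31) for 1437751_at and -0.07 (SE 0.29) for 1456395_at, with limma adjusted p of 0.328 to 0.971. The first and second of these 4 were designed on the same sequence record. In 1437751_at and 1456395_at PiZ replicate 1 was the highest array of all 6, at 6.83 and 7.41, with wild-type arrays at 5.67 to 6.19 and 6.54 to 7.15.

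Both glycogen enzymes fell, each in its own way across the arrays. Gys2 (1424815_at), liver glycogen synthase, which builds glycogen from UDP-glucose, read 9.21, 9.34 and 9.18 in PiZ livers, against 9.80, 10.34 and 10.88 in wild-type livers. The PiZ arrays lay close together and below every wild-type array. Gys2 fell by 1.10 (SE 0.25, 95% interval -1.68 to -0.51), and wild-type was 2.14-fold higher, with a limma adjusted p of 0.0247. All PiZ arrays shared the fall, with -1.13 from the wild-type mean in replicate 1 and -1.08 on average in the others. The call was lost without PiZ replicate 2 (adjusted p = 0.0617) or 3 (0.0891), without wild-type replicate 2 (0.0821) or 3 (0.0607), and with the 3′ to 5′ covariate (0.0727), where the difference was -1.17.

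Pygl (1417741_at), liver glycogen phosphorylase, which releases glucose 1-phosphate from glycogen, read 11.84, 10.53 and 10.70 in PiZ livers, against 12.25, 12.41 and 12.39 in wild-type livers. All PiZ arrays were below wild-type, but PiZ replicate 1 was much closer to wild-type than the others. Pygl fell by 1.32 (SE 0.32, 95% interval -2.06 to -0.58), and wild-type was 2.50-fold higher, with a limma adjusted p of 0.0285. PiZ replicate 1 stood at -0.51 from the wild-type mean, and the other PiZ arrays at -1.73 on average. With the 3′ to 5′ covariate it was -0.51 and did not pass (adjusted p = 0.118). Leaving out any array other than PiZ replicate 1 also ended the call (adjusted p = 0.0799 and 0.106 without PiZ replicate 2 and 3, 0.0897, 0.0932 and 0.103 without wild-type replicate 1, 2 and 3).

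**Figure D2:**
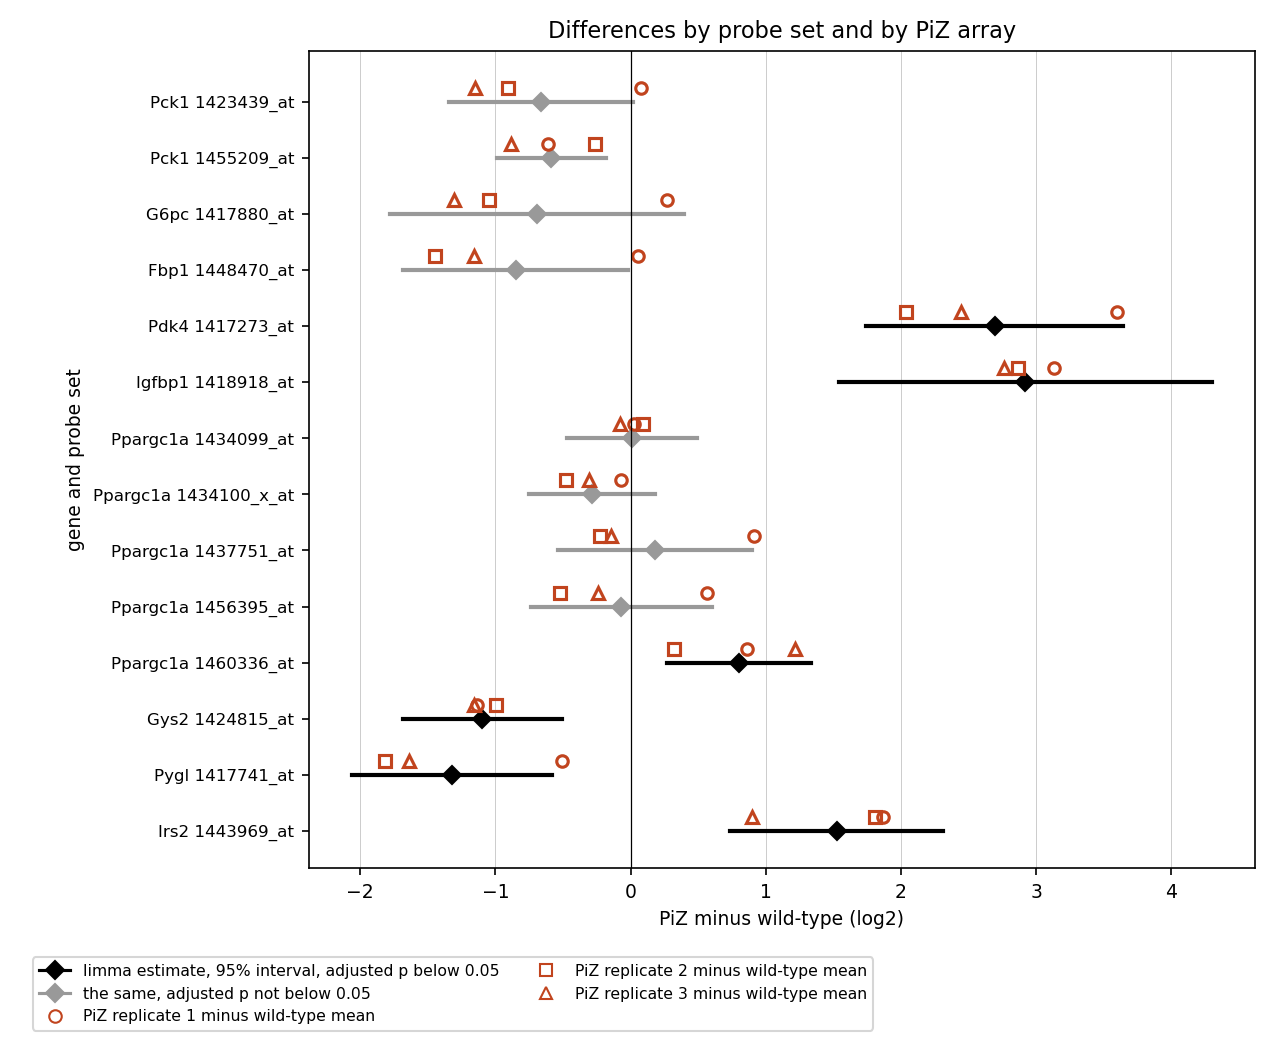
Difference between PiZ and wild-type (log2) for each member probe set: diamonds and lines are the limma estimate with its 95% interval (black where the adjusted p was below 0.05, grey otherwise), and red symbols the difference of each PiZ array from the wild-type mean. For Pck1 (1423439_at), G6pc and Fbp1, PiZ replicate 1 lies at 0.077, 0.27 and 0.053 and the other PiZ arrays lie between -1.45 and -0.91, whereas for Igfbp1 and Gys2 the PiZ arrays lie together.

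In the brightest probe set of each of the 3 gluconeogenic enzymes, PiZ replicate 1 stood 0.053 to 0.27 above the wild-type mean and both other PiZ arrays stood below it. Pck1 (1423439_at), the cytosolic phosphoenolpyruvate carboxykinase that commits oxaloacetate to glucose synthesis, read 12.50, 11.52 and 11.28 in PiZ livers, against 12.40, 12.43 and 12.44 in wild-type livers. The wild-type mice spanned only 0.042 and PiZ replicate 1 lay above all of them. The difference was -0.66 (SE 0.29, 95% interval -1.34 to 0.02, limma adjusted p = 0.143). PiZ replicate 1 stood 0.077 above the wild-type mean, a single array with no replicate, and the difference without it was -1.03 (adjusted p = 0.000296). The second probe set of Pck1, 1455209_at, read 4.09, 4.44 and 3.82 in PiZ, against 4.82, 4.56 and 4.72 in wild-type, and differed by -0.59 (SE 0.17, limma adjusted p = 0.0519), just short of the threshold. Here PiZ replicate 1 was also below every wild-type array. It passed as lower in 7 of 15 other settings, among them cyclic loess (adjusted p = 0.0271), further quantile normalization (0.0307) and a trended, robust variance (0.0476), and the adjusted p ran from 0.00386 to 0.195 over the 15. These values lie near the lower quartile of all probe sets (4.27 to 4.46 over the 6 arrays), so this probe set is dim and the size of its difference is uncertain.

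Fbp1 (1448470_at), fructose 1,6-bisphosphatase, read 13.88, 12.38 and 12.67 in PiZ livers, against 13.78, 13.70 and 14.01 in wild-type livers. Replicates 2 and 3 of PiZ were below, and replicate 1 within, the wild-type range. The difference was -0.85 (SE 0.36, 95% interval -1.68 to -0.02, limma adjusted p = 0.127). PiZ replicate 1 stood 0.053 above the wild-type mean, and the difference without it was -1.30 (adjusted p = 0.000276). G6pc (1417880_at), the catalytic subunit of glucose 6-phosphatase, which frees glucose for export, read 11.70, 10.39 and 10.12 in PiZ livers, against 11.97, 10.69 and 11.63 in wild-type livers. Wild-type replicate 2 lay close to the low PiZ arrays, so the groups overlapped. G6pc differed by -0.69 (SE 0.47, 95% interval -1.78 to 0.39, limma adjusted p = 0.310). PiZ replicate 1 stood 0.27 above the wild-type mean, and the difference without it was -1.18 (adjusted p = 0.0210).

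This gap between the PiZ arrays was also counted over the whole array. The mean of PiZ replicates 2 and 3 was more than 1 below PiZ replicate 1 in 6 of the 14 member probe sets, namely those of Pck1 (1423439_at), G6pc, Fbp1, Pdk4, Pygl and Ppargc1a (1437751_at), with differences of -1.45 to -1.10. Over all 22626 probe sets the same held for 3.67%, and the median difference was 0.07. The cut has the direction seen in these members, and the 22626 include dim probe sets, which have little room to fall. Whether the members differ in this from other probe sets of like brightness was not tested. With the 3′ to 5′ covariate the differences of Pck1 (1423439_at), Fbp1 and G6pc between PiZ and wild-type were 0.062, 0.11 and 0.44, all short of the threshold (limma adjusted p = 0.881, 0.723 and 0.472). With that covariate 2 of the 14 probe sets passed, Pdk4 and Igfbp1, while 12.4% of all probe sets passed. Without PiZ replicate 1, 10 of the 14 passed, while 46.6% of all probe sets did.

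The region before the transcript start is shown for 3 genes that rose and for 2 gluconeogenic genes that did not pass, since insulin and cyclic AMP are known to act on several of them there. The windows are the 250 bases before the RefSeq start of each gene in GRCm38.p6, written 5′ to 3′ on the gene's strand. Igfbp1 is at chr11:7197537-7197786 (plus strand), Pdk4 at chr6:5496279-5496528 (minus), Irs2 at chr8:11008930-11009179 (minus), Pck1 at chr2:173152823-173153072 (plus) and G6pc at chr11:101367466-101367715 (plus). Capitals mark matches to the motifs named below.
Igfbp1: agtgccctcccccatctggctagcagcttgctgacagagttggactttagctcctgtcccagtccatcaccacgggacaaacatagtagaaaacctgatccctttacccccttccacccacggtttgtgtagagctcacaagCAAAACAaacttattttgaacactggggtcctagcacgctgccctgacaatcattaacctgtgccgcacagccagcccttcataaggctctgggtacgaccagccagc
Pdk4: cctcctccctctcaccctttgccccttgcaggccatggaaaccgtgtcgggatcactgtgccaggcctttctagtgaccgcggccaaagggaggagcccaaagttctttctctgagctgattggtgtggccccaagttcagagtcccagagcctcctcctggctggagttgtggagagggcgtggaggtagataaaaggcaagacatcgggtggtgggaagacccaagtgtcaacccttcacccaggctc
Irs2: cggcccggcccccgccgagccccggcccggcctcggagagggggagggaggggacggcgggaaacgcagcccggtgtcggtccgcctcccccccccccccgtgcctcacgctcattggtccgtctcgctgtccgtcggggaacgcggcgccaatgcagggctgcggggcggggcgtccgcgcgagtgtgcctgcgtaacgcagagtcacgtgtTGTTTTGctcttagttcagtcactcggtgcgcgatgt
Pck1: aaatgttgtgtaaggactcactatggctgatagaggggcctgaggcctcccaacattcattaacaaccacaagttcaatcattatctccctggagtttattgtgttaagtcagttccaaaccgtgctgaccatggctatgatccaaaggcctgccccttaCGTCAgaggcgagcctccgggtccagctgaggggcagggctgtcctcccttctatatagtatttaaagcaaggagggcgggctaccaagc
G6pc: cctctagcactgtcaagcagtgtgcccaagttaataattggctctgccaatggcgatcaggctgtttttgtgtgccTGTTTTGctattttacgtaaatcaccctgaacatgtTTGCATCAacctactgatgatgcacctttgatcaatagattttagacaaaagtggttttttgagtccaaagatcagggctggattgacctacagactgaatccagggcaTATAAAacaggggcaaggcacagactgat

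The motifs, 5 in all, were searched on both strands: the TATA box TATAAA, the cAMP response element core TGACG, the forkhead motif TGTTTAC, the insulin response motif CAAAACA and the ATF4 and C/EBP composite core TGATGNAA. The forkhead motif and the reverse of the insulin response motif begin with the same letters, and no match of one can also be a match of the other. Windows were matched for 8 of the 9 members, all but Gys2, and 6 held a match. The insulin response motif was found in 3 windows, starting 108 bases before the transcript start in Igfbp1 and, on the opposite strand, at 37 bases in Irs2 and 174 bases in G6pc, and it is present in 5.55% of the windows of the 27025 genes in the table. Of these 3 genes, Igfbp1 and Irs2 rose and G6pc did not pass. The cAMP response element core was found in 3 windows, on the opposite strand, at 90 bases in Pck1, 49 bases in Ppargc1a and 44 bases in Pygl, and in 17.9% of all windows. Among the 8 windows, G6pc alone matched the exact letters TATAAA (29 bases before the start, in 13.0% of all windows) and the composite core (138 bases, 3.53%). Variant forms of the TATA box and of the other motifs were not searched, so other windows may hold one. The forkhead motif, in 3.09% of all windows, had no match in these letters among the 8. The windows of Pdk4 and Fbp1 held none of the 5. A match describes the sequence and is not evidence of binding.

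**Figure D3:**
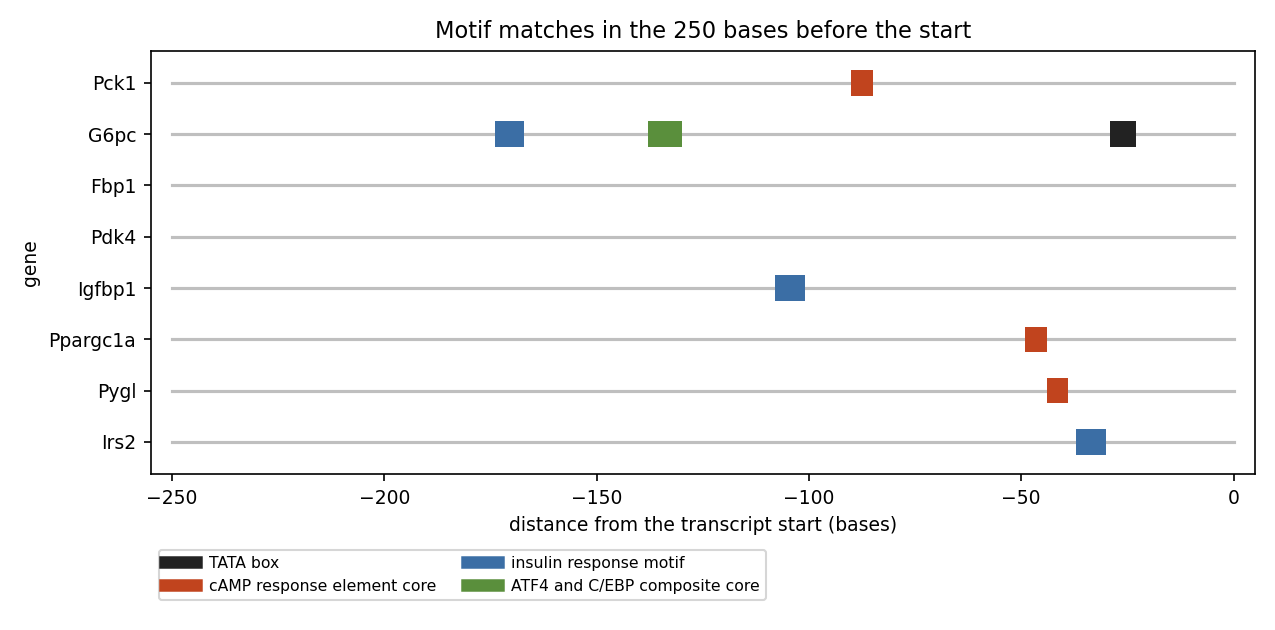
Motif matches in the 250 bases before the transcript start of the 8 members with a window, one row per gene, with distance from the start in bases on the horizontal axis. Blue blocks mark the insulin response motif in G6pc, Igfbp1 and Irs2, and red blocks the cAMP response element core in Pck1, Ppargc1a and Pygl.

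Beyond the 9 members, 7 lists of related genes were read, each gene by its single-gene probe set with the highest mean. Of 122 genes measured from 147 listed, 16 rose and 24 fell in PiZ, or 32.8%, while 21.2% of all 12393 genes passed (9.99% higher and 11.2% lower). The median difference was 0.0006 over the 122 genes and 0.08 over all genes.

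Of 24 measured genes of gluconeogenesis and glycolysis, 5 rose and 6 fell (median -0.0045). Slc2a2, the glucose transporter GLUT2 through which hepatocytes take up and release glucose, read 11.80, 11.00 and 10.70 in PiZ, against 12.43, 12.46 and 12.90 in wild-type, and fell by 1.43 (SE 0.28, limma adjusted p = 0.0155). Pyruvate carboxylase Pcx, which makes the oxaloacetate that Pck1 uses, read 11.24, 10.68 and 10.65 in PiZ, against 11.43, 11.52 and 11.74 in wild-type, and fell by 0.71 (SE 0.18, adjusted p = 0.0365). The groups did not overlap for either gene, with PiZ replicate 1 the nearest to wild-type. Slc37a4, the transporter that feeds glucose 6-phosphate to G6pc, differed by -0.65 (SE 0.23, adjusted p = 0.0843) and mitochondrial Pck2 by 0.01 (SE 0.24). Among aldolases, Aldoa, the form of muscle and many other tissues, rose by 1.32 (SE 0.19, adjusted p = 0.00611), and Aldoc fell by 1.15 (SE 0.17), although the 2 probe sets of Aldoc read -1.15 and -0.17. Lactate dehydrogenase Ldha fell by 0.93 (SE 0.24). Gckr rose by 0.75 (SE 0.19) and hexokinase Hk2 by 0.62 (SE 0.13).

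Of 21 measured glycogen genes other than Gys2 and Pygl, 3 rose and 1 fell (median 0.10). Gaa, the acid glucosidase that degrades glycogen in lysosomes, read 9.89, 10.23 and 10.31 in PiZ, against 9.16, 9.06 and 9.21 in wild-type, and rose by 1.00 (SE 0.14, limma adjusted p = 0.00514). Phkb, a subunit of the kinase that activates phosphorylase, rose by 0.61 (SE 0.13) and the brain form of phosphorylase, Pygb, by 0.57 (SE 0.12). Ugp2, which makes UDP-glucose for glycogen synthesis, fell by 0.74 (SE 0.17, adjusted p = 0.0236), and its 5 probe sets all read lower in PiZ, by -1.35 to -0.20. The branching enzyme Gbe1 read 9.57, 7.28 and 7.72 in PiZ, against 9.14, 8.92 and 9.37 in wild-type. PiZ replicate 1 was above and the other PiZ arrays below every wild-type array, and its difference of -0.95 did not pass (SE 0.53, adjusted p = 0.231).

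Among 31 measured regulators of the insulin, glucagon and fasting response, 5 rose and 8 fell (median -0.03). Irs1, the other main insulin receptor substrate of liver, went the opposite way to Irs2. It read 8.87, 7.95 and 7.58 in PiZ, against 9.72, 9.94 and 9.57 in wild-type, and fell by 1.61 (SE 0.31, limma adjusted p = 0.0138), by 0.87 in PiZ replicate 1 and by 1.98 in replicates 2 and 3. Socs3, an inhibitor of cytokine and insulin signalling, fell by 2.28 (SE 0.36, adjusted p = 0.00803), the glucocorticoid receptor Nr3c1 by 1.40 (SE 0.24) and Ppara, the receptor that drives fatty acid use in fasting, by 1.10 (SE 0.21). The 3 probe sets of Nr3c1 ran from -1.40 to -0.02. Trib3, a pseudokinase that binds AKT, rose by 4.13 (SE 0.21), the cyclic AMP-induced nuclear receptor Nr4a1 by 1.86 (SE 0.27) and the salt-inducible kinase Sik1, also induced by cyclic AMP, by 1.19 (SE 0.20). The insulin receptor Insr (0.17, SE 0.12), the glucagon receptor Gcgr (0.15, SE 0.16), Foxo1 (0.46, SE 0.17, with 4 probe sets from -0.41 to 0.46) and the fasting-activated factor Creb3l3 (-0.26, SE 0.11) did not pass, with adjusted p of 0.100 to 0.494. The probe set of Insr is dim, with a mean of 4.83 in PiZ and 4.66 in wild-type, so a change of this gene could be missed.

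**Figure D4:**
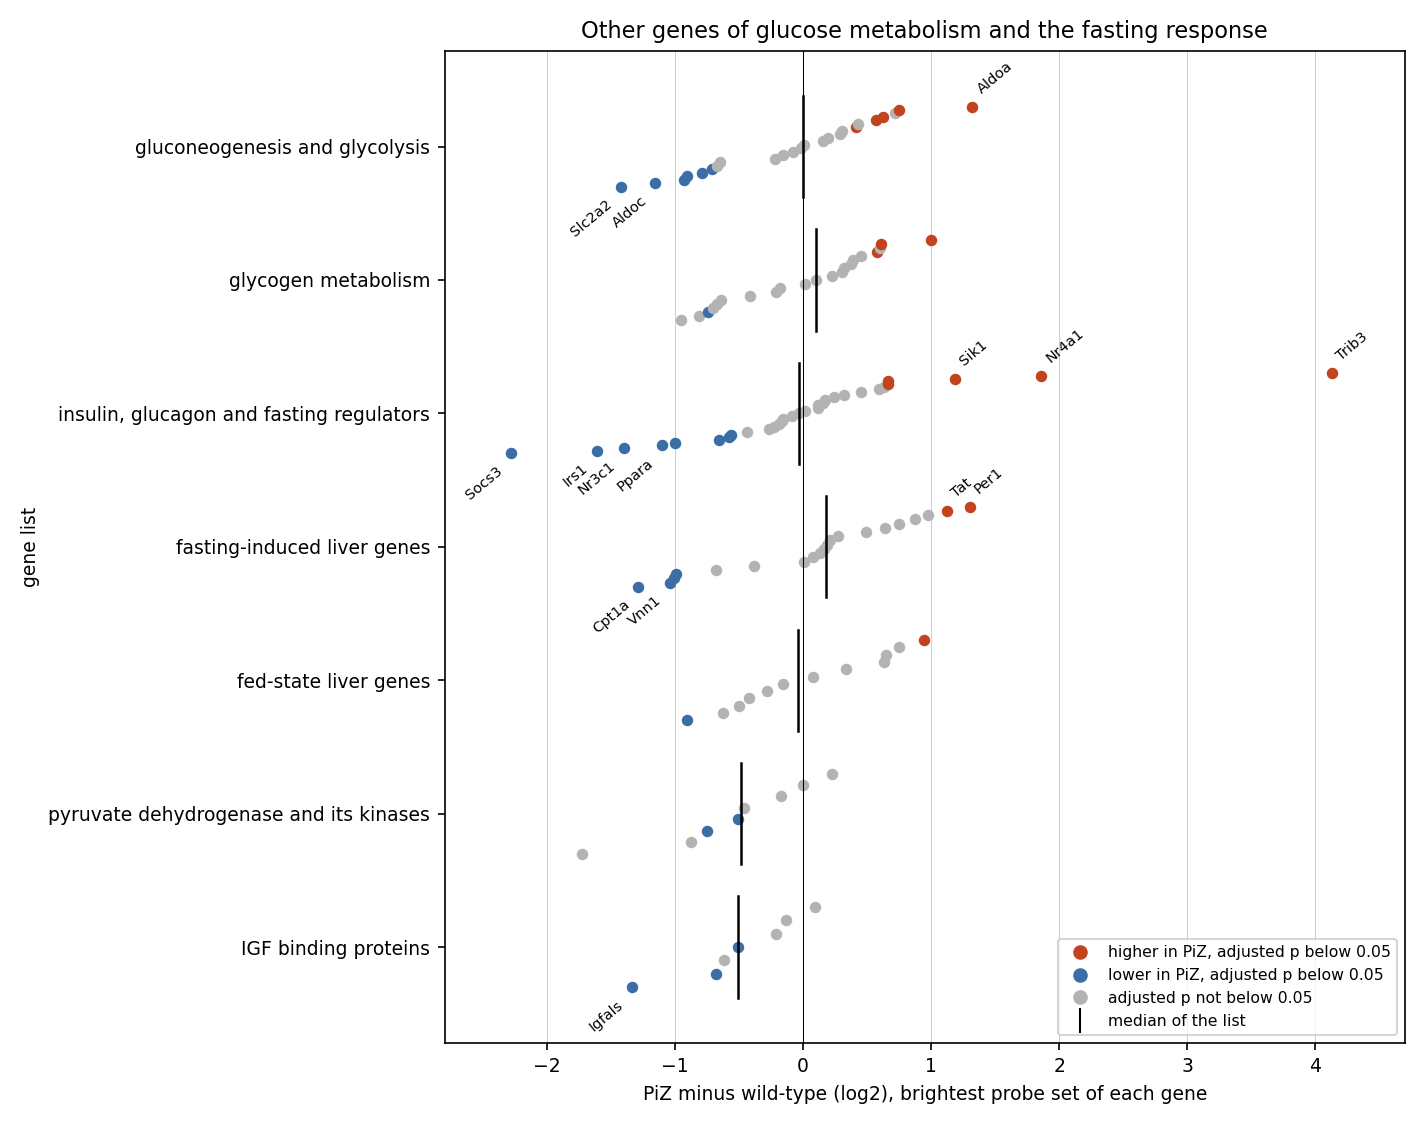
Difference between PiZ and wild-type (log2) for the measured genes of 7 related lists, one point per gene and one row per list. Red and blue points passed as higher and lower in PiZ at an adjusted p below 0.05, grey points did not, and black ticks are list medians. Names mark the larger changes that passed. The medians run from -0.51 (IGF binding proteins) to 0.18 (fasting-induced liver genes).

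Of 20 measured genes that fasting is known to induce in liver, 2 rose and 4 fell (median 0.18), counts to be read against the 9.99% and 11.2% of all genes given above. Tyrosine aminotransferase Tat read 12.85, 11.78 and 11.98 in PiZ, against 11.33, 10.93 and 10.98 in wild-type, and rose by 1.12 (SE 0.28, limma adjusted p = 0.0306). Per1, a clock gene that glucocorticoids and cyclic AMP also induce, rose by 1.30 (SE 0.31, adjusted p = 0.0272). Cpt1a, which admits fatty acids to mitochondria, read 10.03, 9.76 and 9.72 in PiZ, against 11.06, 10.89 and 11.42 in wild-type, and fell by 1.29 (SE 0.16, adjusted p = 0.00399), with all 3 of its probe sets lower. The pantetheinase Vnn1 fell by 1.04 (SE 0.12) and Txnip, whose product restrains glucose uptake, by 1.01 (SE 0.22), the second probe set of Txnip reading 0.05. The fasting hormone Fgf21 read 8.41, 7.54 and 7.48 in PiZ, against 8.33, 5.17 and 7.31 in wild-type, and did not pass (0.87, SE 0.72, adjusted p = 0.405). Of 12 genes typical of the fed state, 1 rose (the acetyl-CoA carboxylase Acacb, by 0.94, SE 0.23) and 1 fell (liver pyruvate kinase Pklr, by 0.91, SE 0.26, lower in all 3 of its probe sets).

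Among relatives of Pdk4 and Igfbp1, none passed as higher in PiZ. Of 8 measured genes of the pyruvate dehydrogenase complex and its kinases, 2 fell (median -0.49): the kinase Pdk1 by 0.75 (SE 0.15, limma adjusted p = 0.0146) and the complex subunit Dlat by 0.51 (SE 0.14). The PiZ arrays parted here. The mean level of the 8 genes was 9.17 in PiZ replicate 1, 8.42 and 8.44 in PiZ replicates 2 and 3, and 9.14 to 9.32 in wild-type. When arrays were centred on reference genes, 0 of the 8 passed, and 1 passed with cyclic loess, further quantile normalization or a trended, robust variance. The reference genes themselves had a lower mean level in PiZ replicates 2 and 3 (9.88 and 9.96) than in wild-type (10.20 to 10.24). Pdk2, another kinase of the family, differed by -0.0017 (SE 0.14). Of 7 measured proteins that bind insulin-like growth factors or their complex, 3 fell (median -0.51). Igfals, the acid-labile subunit that holds circulating IGF in a large complex, fell by 1.34 (SE 0.12, adjusted p = 0.00137), Igfbp7 by 0.68 (SE 0.15, with 3 probe sets from -0.68 to 0.29) and Igfbp3 by 0.51 (SE 0.10). Of these 7 genes 1 passed when arrays were centred on reference genes. In both lists limma called 0 genes higher, and 0 had an unadjusted p below 0.05 in that direction. Igfbp2, which liver also secretes, differed by -0.62 (SE 0.23, adjusted p = 0.0943).

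The genes whose pattern over the 6 arrays was most like that of each member were listed as a description, by Pearson correlation of log2 values, with 2 per member. They were Akr1d1 and Jak1 for Pck1, Tasor2 and Pgrmc1 for G6pc, Rwdd4a and Cox8a for Fbp1, Ap2b1 and Plpp1 for Pdk4, Pax6 and Pter for Igfbp1, Tmem43 and Macroh2a3 for Ppargc1a, Slc38a3 and Slc9a3r1 for Gys2, Sdhc and Atp5h for Pygl, and Kcnk13 and Aak1 for Irs2. The correlations were 0.990 to 0.999 over 6 arrays, the highest among 20380 probe sets with 1 gene named, and the arrays share the split into groups and the split among PiZ arrays.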

How the data were processed

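Liver RNA of 3 PiZ and 3 wild-type mice was read on one-colour Affymetrix arrays. The authors deposited log2 intensities, 1 per probe set and array, made with the affy package and RMA (background correction, quantile normalization and a summary per probe set), per the submitters' processing notes. RMA makes the arrays' distributions alike, so a shift of most genes would not show, with versions and filters not given in the sources used here. Of 22690 probe sets, 64 controls were left out of the tests. The annotation named 1 gene for 20380 probe sets, several for 691 and none for 1555. The labels call the mice biological replicates, and p-values rest on the spread between them. The files hold no detection calls, and precision is limited by the number of arrays.

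PiZ was compared with wild-type with lmFit and eBayes of limma 3.58.1 (R 4.3.3), two-sided and with no covariate, adjusted by Benjamini-Hochberg over 22626 probe sets, and the fit was tested on simulated data. Tables used pandas 2.3.3 and figures matplotlib 3.10.9, in Python 3.11.15. The members, gene lists and alternatives were chosen with earlier results of these data known. Genes outside the members were named by rule: up to 3 largest rises and falls per list, and a set of 17 fixed genes, some of which are not reported here. Sequences are from RefSeq, GRCm38.p6.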

Additional observations from a re-analysis of the deposited data

How the results depend on the processing

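Across 17 alternatives, Pdk4 kept its call in each, and Igfbp1, Irs2, Gys2, Pygl and Ppargc1a 1460336_at kept their direction in each, with a call in 12, 12, 10, 10 and 11. Of 14 member probe sets 6 passed, against 10 with array weights, 2 with the 3′ to 5′ covariate, 1 at an adjusted p below 0.01, and 2 to 10 when each array was left out. Over all probe sets 4331 passed, against 10986, 2812 and 1133 in the same settings and 1239 to 10547 with an array left out, where leaving out PiZ replicate 1 gave the highest count. Of the 122 related genes 40 passed, against 79, 23 and 10 and 12 to 76. A stricter threshold leaves fewer calls by construction, and otherwise the cause was not tested. Directions reversed, short of the threshold, with the 3′ to 5′ covariate for Pck1 1423439_at (0.062), G6pc (0.44), Fbp1 (0.11), Ppargc1a 1434099_at (-0.088) and Ppargc1a 1456395_at (0.53). PiZ replicate 1 alone, a single array tested with the spread of the wild-type arrays, gave 0.077, 0.27 and 0.053 for Pck1 1423439_at, G6pc and Fbp1, and 0.56 for Ppargc1a 1456395_at. Ppargc1a 1434099_at turned to -0.013 after cyclic loess and -0.035 with array weights, Ppargc1a 1437751_at to -0.087 with array weights, and Ppargc1a 1456395_at to 0.13 when centred on reference genes. Leaving out each array gave -0.17 to 0.24 for 1434099_at, -0.19 to 0.38 for 1437751_at and -0.38 to 0.16 for 1456395_at. Centring on 8 reference genes moved the median difference of all probe sets to 0.27, against 0.08, and the split of calls to 2335 higher and 1319 lower, against 2020 and 2311. Of these 8 genes 1 passed as higher and 2 as lower in the main fit. Their mean level was 10.24, 9.88 and 9.96 in PiZ replicates 1, 2 and 3, against 10.20 to 10.24 in wild-type, so the reference itself differed between arrays. The replicate block gave 5189 calls over all probe sets and called the same 6 member probe sets. Same-numbered arrays had deviations that correlated at 0.30, 0.30 and -0.04. PiZ replicates 1 and 2 were most like the wild-type array of the same number, and PiZ replicate 3 was most like wild-type replicate 2 (0.29). With 3 arrays per group these correlations cannot tell whether same-numbered arrays belong together, and the labels give them only a shared number. Dim probe sets such as Pck1 1455209_at are limited by background.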

Other observations

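Several of the 9 genes varied more between the wild-type mice than most of the array. Ranked by SD over the 3 wild-type arrays, Igfbp1 was 9 of 22626 probe sets (SD 1.36), G6pc 81 (0.66), Irs2 131 (0.55), Gys2 136 (0.54) and Pdk4 209 (0.46), so 5 of the 14 member probe sets lay in the top 1%. Pck1 (1423439_at) was at the other end, at rank 21832 (0.022). In PiZ the SD was 0.19 for Igfbp1 and 0.089 for Gys2, and 0.81 for Pdk4. These differences in spread were not tested. The wild-type mice took the same order for 3 of the genes: replicate 1 had the highest Igfbp1 (12.20) and Pdk4 (6.24) and the lowest Gys2 (9.80), and replicate 3 the lowest Igfbp1 (9.49) and Pdk4 (5.32) and the highest Gys2 (10.88). G6pc, Irs2, Fbp1, Pygl and Ppargc1a (1460336_at) did not follow that order, while Pck1 (1423439_at) took the order of Gys2 within a range of 0.042. With 3 mice only a few orders are possible, so genes can share an order without being linked, and a link was not tested.

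Genes with similarly large spread between the wild-type mice, chosen here after their values were seen, included the immediate early gene Egr1 (11.73, 9.51 and 7.87 in wild-type replicates 1, 2 and 3, SD 1.94), the fasting hormone Fgf21 (8.33, 5.17 and 7.31) and the lipogenic gene Thrsp (9.07, 10.40 and 11.26). Among the named genes of greatest spread, Egr1, Nr0b2, Elovl3 and Jun took the order of Igfbp1. Acot3, Mt2, Usp2, Cyp7a1 and Thrsp took the order of Gys2, and Fgf21, Slc15a2, G0s2 and Myc took neither. The mean level of 12 fed-state genes was 10.14, 10.02 and 10.14 in PiZ replicates 1, 2 and 3, against 9.60, 10.27 and 10.31 in wild-type replicates 1, 2 and 3. For the 20 fasting-induced genes it was 9.70, 9.73 and 9.78 in PiZ, against 9.58, 9.52 and 9.83 in wild-type. Wild-type replicate 1 was thus lowest for the fed-state genes but not highest for the fasting-induced genes. The part of feeding, handling or the hour of collection in this spread was not tested.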
